A study of Mus musculus with 14 samples.

Results

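The BCL2 family regulators described here are 10 genes, *Bcl2*, *Bcl2l1*, *Bcl2l2*, *Bak1*, *Bcl2l11*, *Bmf*, *Bid*, *Bad*, *Bik* and *Bcl2l15*, chosen by gene name from tables of 55889 genes without dextran sulfate sodium (DSS) and 54721 genes after DSS. *Mcl1*, *Bax* and the members known as p53 targets were not chosen. The expression of the 10 genes was measured by RNA sequencing of intestinal tissue from 14 C57BL/6N mice. The experiment without DSS held 4 wild-type (WT) and 4 miR-29ab1-/- animals. The other held 3 of each genotype, which had taken 3.5% DSS in the drinking water for 3 days. The miR-29ab1-/- mice carry a germline deletion of the locus of miR-29a and miR-29b-1 in all tissues, and miR-29b-2 and miR-29c are kept. The mice were littermates 8 to 12 weeks old. DSS damages the colonic epithelium and is used as a model of ulcerative colitis.

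The study's methods name colon as the tissue, whereas the labels name small intestinal crypts. Among the markers of colonic epithelium, *Car1* stood at 928 to 4136 CPM, the count scaled to a common library size, without DSS and 3624 to 5163 CPM after DSS. The 8 colonic markers summed to 2392 to 5607 CPM per mouse without DSS and 10778 to 15103 CPM after DSS. The 9 small intestinal markers found in the tables summed to 154 to 280 CPM and 217 to 421 CPM. Most of that sum was *Fabp2*, at 144 to 403 CPM over all mice, while *Sis* reached 10.2 CPM, *Fabp6* reached 29.4 CPM, and *Apoa4* and *Lct* stayed at or below 0.330 CPM. The 6 smooth muscle markers summed to 2.22 to 2.77 CPM per mouse without DSS and 0.962 to 3.60 CPM after DSS. The 8 epithelial markers summed to 8667 to 11606 CPM and 14408 to 17685 CPM. The samples are called colon here after the study's methods. Whether they were whole colon or isolated crypts was not tested. The reads counted on genes totalled 14231157 to 18185020 per mouse without DSS and 20076719 to 23153149 after DSS. The hairpin genes *Mir29a* and *Mir29b-1* had 0 or 1 read in every mouse of both genotypes, so these libraries do not check the knockout. In tissue RNA, fewer cells of a type and less RNA per cell cannot be told apart.

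Proteins of the BCL2 family decide whether the outer mitochondrial membrane is opened, the step that releases cytochrome c and starts the caspases. The survival members BCL2, BCL-XL (*Bcl2l1*) and BCL-W (*Bcl2l2*) hold the pore-forming effectors BAK (*Bak1*) and BAX in check. The BH3-only members BIM (*Bcl2l11*), BMF, BID, BAD and BIK sense stress and either block the survival members or activate the effectors. In the intestine such members take part in the shedding and turnover of crypt and surface epithelium and in the death of lymphocytes.

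The miRNAs lost in the knockout share their seed with the miR-29 family members that remain, and the seed defines which mRNAs they can pair with. The mature sequences, from RefSeq on GRCm38.p6, are shown because the sites in the members are read against them, with the seed (bases 2 to 8) in capitals.
miR-29a-3p: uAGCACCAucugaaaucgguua
miR-29b-3p: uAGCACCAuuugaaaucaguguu
miR-29c-3p: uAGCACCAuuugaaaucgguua
The sequence of miR-29b-3p is encoded at 2 loci, the deleted *Mir29b-1* (chr6:31063025-31063047, minus strand) and the kept *Mir29b-2* (chr1:195037091-195037113, plus strand).

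The longest 3′ UTR of each member in GENCODE vM21 was searched on the transcribed strand for TGGTGCTA (8mer), TGGTGCT without the final A (7mer-m8) and GGTGCTA without the leading T (7mer-A1), so that no match was counted under more than 1 type. Of the 10 members, 4 held at least 1 match and 6 held none. The matches of the members with an 8mer, and those of the remaining carriers, are shown with 10 bases on either side and the matched letters in capitals.
*Bak1*, 8mer, chr17:27020726-27020753, minus strand: caacattgcaTGGTGCTActgaacccca
*Bmf*, 8mer, chr2:118531346-118531373, minus strand: ggaaagacatTGGTGCTAtaatgaagat
*Bmf*, 7mer-A1, chr2:118529045-118529071, minus strand: ctttggccaaGGTGCTAtgaggtctgt
*Bcl2l11*, 7mer-m8, chr2:128158403-128158429, plus strand: gtccctctctTGGTGCTgcgacagtgt
*Bcl2l2*, 7mer-m8, chr14:54886178-54886204, plus strand: actagggctcTGGTGCTgccgagagtt
*Bcl2l2*, 7mer-m8, chr14:54886601-54886627, plus strand: ggtgggttttTGGTGCTgctgctctat
*Bcl2l2*, 7mer-A1, chr14:54886849-54886875, plus strand: cacttcccaaGGTGCTAacattgctgc
*Bcl2*, *Bcl2l1*, *Bid*, *Bad*, *Bik* and *Bcl2l15* had no match, although the 3′ UTR of *Bcl2* was the longest of the members (5086 bases). Among the carriers, that of *Bak1* had 1121 bases, and those of *Bcl2l2*, *Bmf* and *Bcl2l11* had 3177, 3801 and 4218 bases. The median was 960 bases over all protein-coding genes with a 3′ UTR and 1144 bases over those tested in either experiment. Among all 21010 protein-coding genes with a 3′ UTR, 2.85% held an 8mer and 16.02% held any of the 3 types. Among the 13032 of them tested in either experiment, 3.14% held an 8mer and 18.68% held any type. A match is a description of these letters and does not show that the miRNA acts there.

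Within each experiment the members spanned a wide range of levels, and *Bak1* was the most abundant of them. Levels of different genes were compared as CPM per kilobase of the gene length in the deposited table. In WT mice without DSS, *Bak1* stood at 30.02 ± 5.70 CPM per kilobase (SD, n = 4), with a range of 23.2 to 35.6 that did not overlap that of any other member. *Bcl2l2* (15.8 ± 1.26) and *Bad* (15.6 ± 1.68) followed and overlapped each other in range. *Bcl2l1* stood apart from its neighbours at 8.36 ± 1.43. *Bid* (3.68 ± 0.646), *Bcl2* (2.62 ± 0.684), *Bmf* (2.05 ± 0.647), *Bcl2l11* (1.66 ± 0.436) and *Bik* (1.58 ± 0.986) formed the lower end, each overlapping the next in range. The order in miR-29ab1-/- mice was the same apart from *Bad* and *Bcl2l2*, which changed places at 15.97 ± 1.30 and 15.6 ± 1.06 (n = 4) and overlapped in range there as well. *Bcl2l15*, a member described in the gastrointestinal tract, had 0 to 5 reads per mouse in both experiments. Those reads came to at most 0.358 CPM, where the level of 3 reads was 0.130 to 0.211 CPM. As counted, *Bcl2l15* was thus at the limit of detection and was not tested.

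After DSS, *Bak1* again led in WT mice at 59.5 ± 6.84 CPM per kilobase (n = 3), followed by *Bad* at 21.1 ± 2.05. *Bcl2l1* (11.4 ± 0.728) and *Bcl2l2* (11.3 ± 0.668) overlapped each other. *Bid* stood at 6.23 ± 1.41, *Bik* at 2.59 ± 0.752, *Bmf* at 1.94 ± 0.732, *Bcl2l11* at 1.21 ± 0.107 and *Bcl2* at 1.20 ± 0.292, so that *Bcl2*, the founding survival member, was the lowest of the 9 detected members. *Bik* and *Bmf* overlapped in range, as did *Bcl2l11* and *Bcl2*. The level of *Bad* per length depends on its gene length, 2558 bases in the table without DSS and 2007 bases in that after DSS. With the length of the other table, its WT level was 19.9 CPM per kilobase without DSS and 16.6 after DSS. Its mean then stood above that of *Bcl2l2* without DSS, and after DSS it still came next after *Bak1*. As a share of the summed level per length of the 10 members, *Bak1* took 31.9% to 40.5% in WT mice without DSS and 33.8% to 47.3% in miR-29ab1-/- mice. After DSS its share was 49.0% to 54.9% in WT mice against 54.3% to 58.1% in miR-29ab1-/- mice, and the genotypes overlapped in both experiments.

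**Figure D1:**
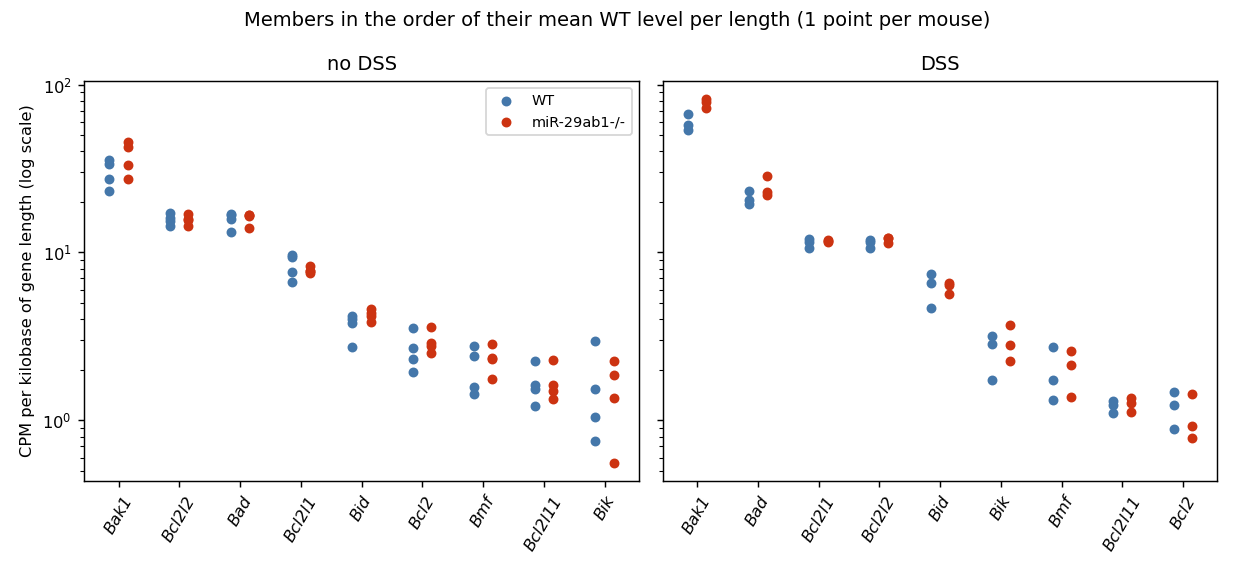
Level of the 9 detected members in CPM per kilobase of gene length (log axis) without DSS and after DSS, 1 point per mouse (WT blue, miR-29ab1-/- red), ordered by the WT mean. *Bak1* is highest in both panels, with WT means of 30.02 and 59.5, and *Bcl2* is 6th without DSS and 9th after DSS.

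The main comparison was of miR-29ab1-/- with WT mice within each experiment. Of the 10 members, 9 had enough reads to be tested in each experiment, and no member passed an adjusted p under 0.05 (edgeR's quasi-likelihood test, Benjamini-Hochberg adjustment over all genes). Only 3 of the 15441 genes tested without DSS (0.0194%) and 2 of the 14908 tested after DSS (0.0134%) did so. At an unadjusted p under 0.05, 0 of 9 members differed without DSS, where 3.67% of all genes did, and no member had groups that did not overlap, where 2.03% of all genes had. After DSS, 1 of 9 members, *Bak1*, did so, where 7.23% of all genes did, so the members' count is near that of genes in general. The members' median log2 fold change was 0.03 without DSS and 0.07 after DSS, beside -0.0016 and -0.0051 over all genes tested. The following paragraphs give CPM values per mouse, which can be compared between mice for 1 gene but not between genes.

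The effector *Bak1* (chr17:27019810-27029009, minus strand) was the member with the clearest separation of genotypes. After DSS it stood at 130, 162 and 138 CPM in the WT mice and at 197, 189 and 174 CPM in the miR-29ab1-/- mice. All 3 miR-29ab1-/- mice were above all 3 WT mice, which was also the case for 5.32% of the genes tested. The log2 fold change was 0.38 (SE 0.11), a fold of 1.30 with a 95% interval of 1.09 to 1.55. The unadjusted p was 0.0075 and the adjusted p 0.646 (edgeR), and the two-sided exact permutation test gave 0.1, the smallest p that 3 against 3 mice allow. In one model of all 14 mice the unadjusted p was 0.056 (edgeR). Of the genes tested, 10.7% had a log2 fold change at least as large in the same direction.

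Without DSS, *Bak1* stood at 55.95, 81.1, 66.1 and 85.8 CPM in the WT mice and at 66.1, 80.4, 109.9 and 102.1 CPM in the miR-29ab1-/- mice. The highest values were again from miR-29ab1-/- mice, but the groups overlapped. The log2 fold change was 0.31 (SE 0.18), with an interval of -0.09 to 0.71 and an unadjusted p of 0.116 (edgeR). Leaving out single mice gave 0.21 (without miR-29ab1-/- mouse 3, unadjusted p of 0.290) to 0.43 (without miR-29ab1-/- mouse 1, unadjusted p of 0.026, adjusted p 0.999, edgeR). The fold change did not differ detectably between the experiments, the interaction being 0.08 with an interval of -0.45 to 0.60.

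Levels of markers of other cell types stand beside the *Bak1* values after DSS, and none of those named here passed an adjusted p under 0.05. The summed level of 14 T cell markers was 56.6 to 112 CPM in WT mice against 82.0 to 190 CPM in miR-29ab1-/- mice, with 14 of 14 markers at a log2 fold change above 0, 4 of them at an unadjusted p under 0.05 (adjusted p 0.646 to 0.655, edgeR), and none at 0. With a T cell score as a covariate, the log2 fold change of *Bak1* was 0.37 and its unadjusted p 0.046 (adjusted p 0.9998, edgeR). The sum of 5 neutrophil markers was 45.4 to 97.7 CPM in WT mice against 90.5 to 239 CPM in miR-29ab1-/- mice, with all 4 tested markers at a log2 fold change above 0 and 1 of them, *S100a8*, at an unadjusted p of 0.039 (adjusted p 0.662). Most of that sum was *Ly6g*, at 44.9 to 92.6 CPM in WT mice against 87.7 to 202 CPM in miR-29ab1-/- mice, while *Cxcr2* and *Csf3r* stayed at or below 3.60 CPM. The 8 epithelial markers summed to 14408 to 16246 CPM in WT mice against 15210 to 17685 CPM in miR-29ab1-/- mice, so these ranges overlapped. Of these markers, 7 of 8 had a log2 fold change above 0. *Cldn7* did not overlap, at 823 to 883 CPM in WT mice against 893 to 1072 CPM in miR-29ab1-/- mice (0.20, unadjusted p of 0.146, adjusted p 0.715, edgeR). The 7 macrophage markers overlapped in sum (15.7 to 28.9 CPM and 15.3 to 42.2 CPM), with 6 of 7 above 0. The sum of 4 enteroendocrine markers did not overlap, at 164 to 192 CPM in the WT mice and 110 to 148 CPM in the miR-29ab1-/- mice, with 4 of 4 at a log2 fold change below 0, among them *Pyy* (-0.59, unadjusted p of 0.0018) and *Chga* (-0.44, unadjusted p of 0.021), both with an adjusted p of 0.646. That sum did not overlap without DSS either, where *Bak1* did, at 176 to 255 CPM in the WT mice and 94.8 to 133 CPM in the miR-29ab1-/- mice, with *Chga* at -0.93 (unadjusted p of 2.5e-05, adjusted p 0.0971) and *Chgb* at -0.91 (unadjusted p of 0.00016, adjusted p 0.368, edgeR). The 5 fibroblast markers overlapped in sum (18.8 to 31.04 CPM and 14.8 to 44.5 CPM), but *Col3a1* did not overlap (1.24, unadjusted p of 0.0037, adjusted p 0.646, edgeR). The share of mitochondrial reads was 14.8%, 20.2% and 7.43% in the miR-29ab1-/- mice and 8.81%, 6.15% and 7.72% in the WT mice, so that 2 of the 3 miR-29ab1-/- mice lay above every WT mouse. Without mouse 2, the highest, the log2 fold change of *Bak1* was 0.37 with an unadjusted p of 0.023, and without mouse 1 it was 0.34 with an unadjusted p of 0.030. With 3 mice per genotype and all 14 T cell markers above 0, the T cell score cannot be fully told apart from genotype. The part of the other markers and of the mitochondrial share in the *Bak1* difference was not tested.

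**Figure D2:**
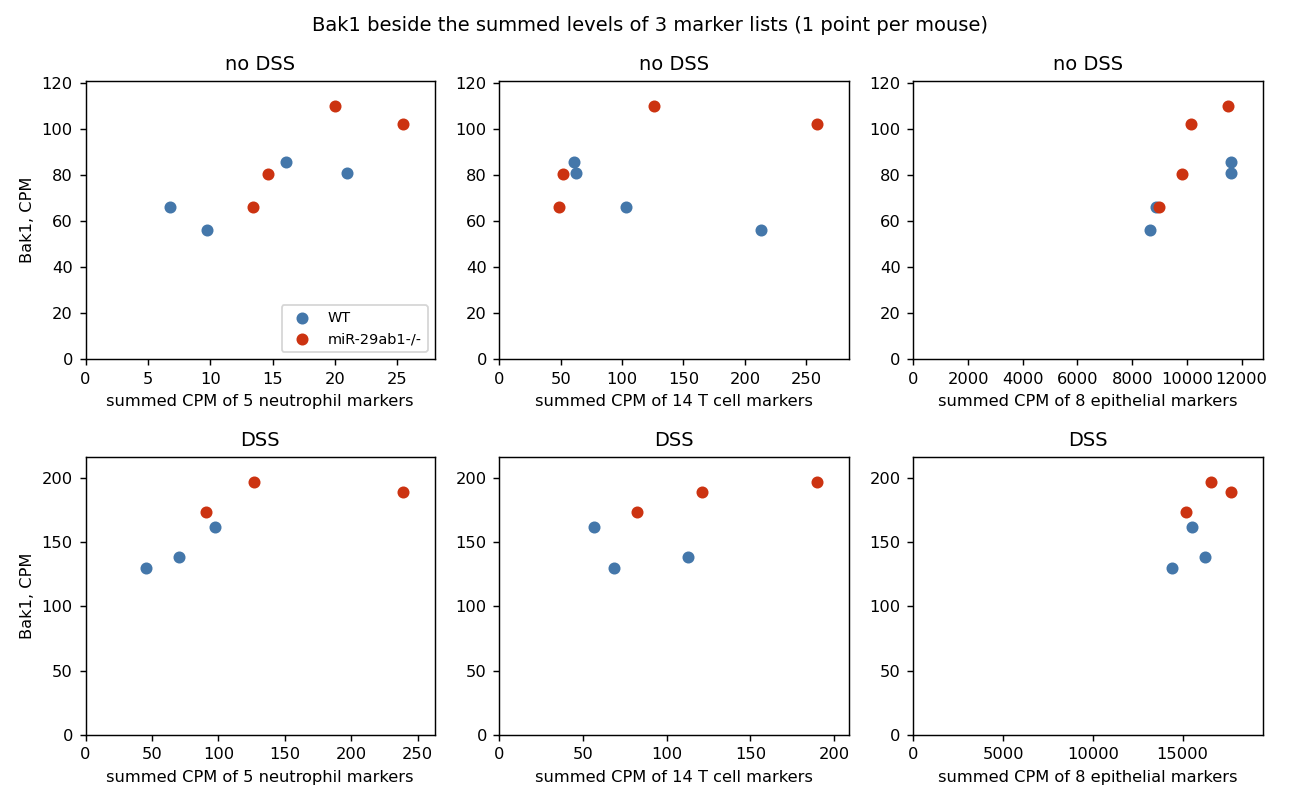
CPM of *Bak1* against the summed CPM of 5 neutrophil, 14 T cell and 8 epithelial markers, without DSS (top) and after DSS (bottom), 1 point per mouse (WT blue, miR-29ab1-/- red). After DSS the miR-29ab1-/- mice lie above the WT mice for *Bak1*, at 174 CPM or more against 162 CPM or less. These marker sums of the genotypes overlap. In each sum, miR-29ab1-/- mice 1 and 2 lie above every WT mouse and mouse 3 lies within the WT range.

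The survival members did not separate the genotypes in either experiment. *Bcl2* (chr1:106538178-106714274, minus strand) stood at 32.4, 21.3, 24.8 and 17.7 CPM in WT mice without DSS and at 25.4, 33.1, 23.1 and 26.3 CPM in miR-29ab1-/- mice. The highest WT mouse and the highest miR-29ab1-/- mouse were close to each other, and the log2 fold change was 0.17 (SE 0.18, interval -0.24 to 0.57). Leaving out single mice gave 0.044 (without WT mouse 4, unadjusted p of 0.804) to 0.35 (without WT mouse 1, unadjusted p of 0.04999, adjusted p 0.998, edgeR), and without miR-29ab1-/- mouse 2 it was 0.061. After DSS *Bcl2* stood at 13.5, 8.15 and 11.3 CPM in WT mice and at 13.1, 8.42 and 7.15 CPM in miR-29ab1-/- mice, overlapping widely, with a log2 fold change of -0.20 (SE 0.26, interval -0.81 to 0.40). It was -0.61 with the T cell score as a covariate (unadjusted p of 0.075, edgeR) and -0.50 (without miR-29ab1-/- mouse 1) to -0.031 (without WT mouse 1) when single mice were left out. Of all members *Bcl2* had the interaction with the smallest p, at -0.37 with an interval of -1.08 to 0.34 and an unadjusted p of 0.280. Leaving out single mice gave interactions from -0.67 (without miR-29ab1-/- mouse 1 of the DSS experiment, unadjusted p of 0.0493, adjusted p 0.99996, edgeR) to -0.20 (without WT mouse 1 of the DSS experiment, unadjusted p of 0.573).

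*Bcl2l1* (chr2:152780668-152831728, minus strand), which encodes BCL-XL, was the least variable member among the miR-29ab1-/- mice. They stood at 34.8, 35.7, 35.3 and 37.8 CPM without DSS and at 54.6, 53.6 and 53.2 CPM after DSS, which is a coefficient of variation of 3.76% and 1.31%. The WT mice stood at 35.2, 43.1, 30.6 and 44.5 CPM without DSS and at 55.4, 52.6 and 48.7 CPM after DSS, on both sides of the miR-29ab1-/- values. The log2 fold change was -0.09 (interval -0.36 to 0.18) without DSS and 0.04 (interval -0.16 to 0.25) after DSS. As folds these intervals were 0.777 to 1.13 and 0.894 to 1.19.

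*Bcl2l2* (chr14:54883377-54888234, plus strand), which carries 3 of the matches shown above, gave the narrowest interval without DSS. Its levels were 63.9, 77.1, 71.9 and 68.2 CPM in WT mice and 70.5, 75.4, 69.3 and 63.9 CPM in miR-29ab1-/- mice. The fold was 0.993, with an interval of 0.866 to 1.14. After DSS the levels were 52.9, 47.2 and 51.7 CPM in WT mice and 54.3, 50.6 and 54.2 CPM in miR-29ab1-/- mice, a fold of 1.05 with an interval of 0.908 to 1.21. The groups overlapped in both experiments.

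Among the BH3-only members, *Bcl2l11* (chr2:128126038-128162547, plus strand), which encodes BIM, a sensor of cytokine withdrawal in lymphocytes, differed more between mice than between genotypes. Without DSS it stood at 18.1, 9.71, 13.0 and 12.4 CPM in WT mice and at 13.0, 10.8, 11.98 and 18.2 CPM in miR-29ab1-/- mice. The highest mouse of each genotype, WT mouse 1 and miR-29ab1-/- mouse 4, also had the highest summed T cell markers of its group, at 213 and 259 CPM, against 60.5 to 103 CPM in the other WT mice and 48.4 to 126 CPM in the other miR-29ab1-/- mice. The same mice had the highest mitochondrial share of their groups (13.9% and 12.3%) and the highest summed macrophage markers (22.6 and 19.8 CPM). The part of these cells and of the mitochondrial share in the spread between mice was not tested. The log2 fold change was 0.02 (SE 0.22, interval -0.45 to 0.50). After DSS the levels were 9.87, 8.82 and 10.5 CPM in WT mice and 10.95, 8.95 and 10.1 CPM in miR-29ab1-/- mice, with a log2 fold change of 0.04 (SE 0.16, interval -0.32 to 0.40), and the groups overlapped.

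*Bmf* (chr2:118528757-118549687, minus strand), a BH3-only member tied to the cytoskeleton that carries the second 8mer, was also spread widely. Its levels without DSS were 14.6, 8.34, 12.7 and 7.51 CPM in WT mice and 15.1, 9.30, 12.4 and 12.2 CPM in miR-29ab1-/- mice, and the log2 fold change was 0.18 (SE 0.23, interval -0.33 to 0.70). It ran from 0.045 (without WT mouse 4) to 0.37 (without WT mouse 1) when single mice were left out. After DSS they were 14.4, 6.94 and 9.15 CPM in WT mice and 7.25, 11.2 and 13.6 CPM in miR-29ab1-/- mice, and the log2 fold change was 0.07 (SE 0.31, interval -0.65 to 0.80). Each genotype had a mouse near 7 and a mouse near 14 CPM after DSS. As a fold the interval after DSS was 0.636 to 1.74, so it holds differences in both directions and none was detected.

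*Bid* (chr6:120891930-120916853, minus strand), which links death receptors to mitochondria once caspase-8 has cut it, stood at 9.73, 14.2, 13.5 and 14.9 CPM in WT mice and at 14.9, 15.4, 13.6 and 16.3 CPM in miR-29ab1-/- mice without DSS. WT mouse 1 was below all the others, which lay close together, and the log2 fold change was 0.20 (SE 0.15, interval -0.13 to 0.54). After DSS it stood at 16.6, 26.3 and 23.5 CPM in WT mice and at 20.1, 23.5 and 22.6 CPM in miR-29ab1-/- mice. The miR-29ab1-/- mice lay inside the WT range, and the log2 fold change was -0.01 (SE 0.17, interval -0.39 to 0.38).

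*Bad* (chr19:6941861-6951899, plus strand, in the table without DSS), which growth factor signalling holds inactive by phosphorylation, stood at 33.9, 43.2, 40.4 and 42.6 CPM in WT mice and at 42.7, 41.9, 43.0 and 35.9 CPM in miR-29ab1-/- mice without DSS. Each genotype had 1 lower mouse, and the log2 fold change was 0.03 (SE 0.10, interval -0.20 to 0.26). After DSS it stood at 38.9, 41.3 and 46.9 CPM in WT mice and at 45.7, 57.5 and 44.2 CPM in miR-29ab1-/- mice. The highest was miR-29ab1-/- mouse 2 and the groups overlapped, with a log2 fold change of 0.21 (SE 0.13, interval -0.08 to 0.50, unadjusted p of 0.129, adjusted p 0.698, edgeR). It ran from 0.087 (without miR-29ab1-/- mouse 2) to 0.29 (without WT mouse 3) when single mice were left out. *Bik* (chr15:83526862-83544634, plus strand), a BH3-only member of the endoplasmic reticulum, had only 14 to 86 reads per mouse without DSS and 66 to 111 after DSS. Its levels were 0.887 to 4.73 CPM over all 8 mice and 2.76 to 5.88 CPM over all 6, and its interval was a fold of 0.447 to 2.04 without DSS, the widest of the tested members there, and 0.709 to 1.80 after DSS.

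**Figure D3:**
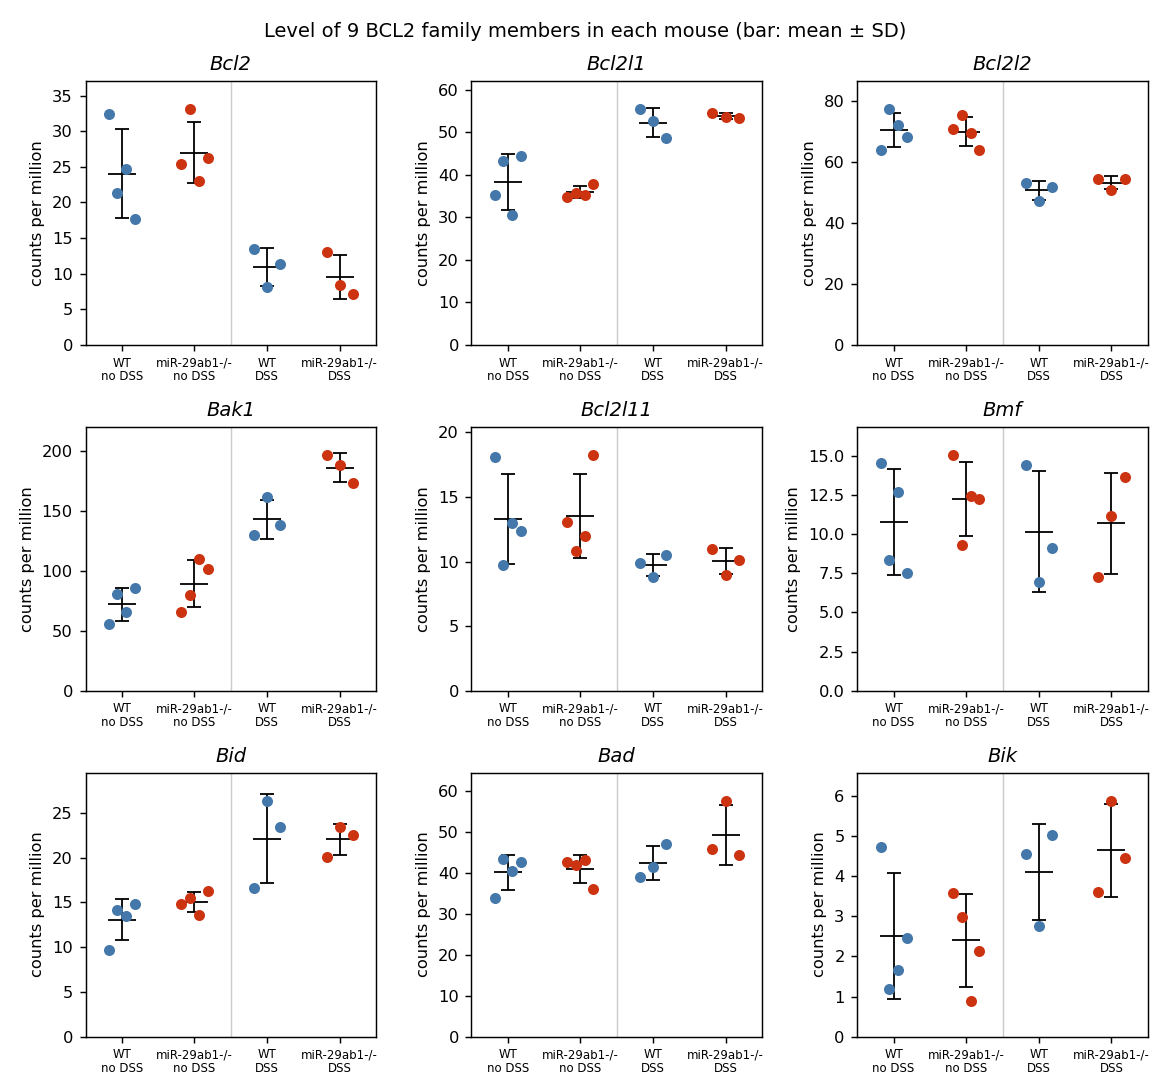
CPM of the 9 tested members in each mouse (points), with the mean and SD of each group (bars), for WT (blue) and miR-29ab1-/- mice (red), without DSS on the left of each panel and after DSS on the right. *Bak1* after DSS is the panel in which the genotypes do not overlap, with 130 to 162 CPM in WT mice against 174 to 197 CPM in miR-29ab1-/- mice.

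**Figure D4:**
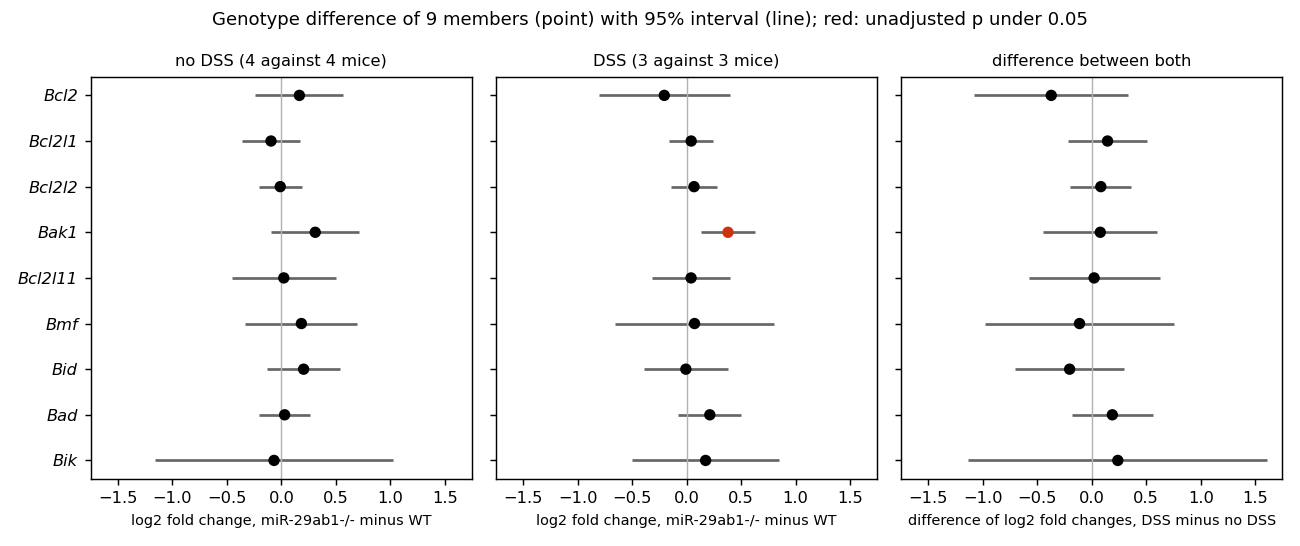
Log2 fold change between miR-29ab1-/- and WT mice (points) with the 95% interval (lines) for the 9 tested members without DSS, after DSS, and for the difference between both. The interval of *Bak1* after DSS, 0.13 to 0.63, is the one that leaves out 0 among those shown.

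The difference between the experiments in the genotype effect was tested as an interaction over all 14 mice. No member passed an adjusted p under 0.05 or an unadjusted p under 0.05, where 4.03% of 16370 genes passed the latter. The estimates ran from -0.37 for *Bcl2* to 0.24 for *Bik* on the log2 scale, and the interval of *Bcl2l2*, the narrowest, was -0.20 to 0.36.

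The 4 members with a match to the miR-29 seed had log2 fold changes from -0.01 to 0.31 without DSS (median 0.10), and the 5 tested members without one from -0.09 to 0.20 (median 0.03). After DSS the ranges were 0.04 to 0.38 (median 0.07) and -0.20 to 0.21 (median 0.04). *Bak1* was the highest of the first set in both experiments, and the ranges of the sets overlapped. With so few members these values are a description and no test was made.

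The levels of the members in both experiments can be set side by side, but DSS and the experiment cannot be told apart, because all the mice without DSS are in one table and all those after DSS in the other. The gap is large for genes outside the family, such as the goblet cell mucin gene *Muc2*, at 22.03 to 164 CPM in the first and 3545 to 7982 CPM in the second. *Bak1* in WT mice stood at 55.95 to 85.8 CPM without DSS and 130 to 162 CPM after DSS, a ratio of means of 1.98. *Bid* (ratio 1.69) and *Bcl2l1* (ratio 1.36) were likewise higher after DSS, with no overlap. *Bcl2* was lower, at 17.7 to 32.4 against 8.15 to 13.5 CPM, a ratio of 0.457, and *Bcl2l2* was lower at a ratio of 0.720. In miR-29ab1-/- mice the ratios were 2.08 for *Bak1*, 1.46 for *Bid*, 1.499 for *Bcl2l1*, 0.354 for *Bcl2* and 0.760 for *Bcl2l2*, again without overlap. *Bad* (ratio 1.20) and *Bik* (ratio 1.94) were also higher without overlap in miR-29ab1-/- mice, while both overlapped in WT mice (1.06 and 1.64). *Bcl2l11* and *Bmf* overlapped between the experiments in both genotypes.

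Scaling all 14 mice together moved the members' log2 ratios by a median of 0.30. The ranges of *Bak1*, *Bid*, *Bcl2l1* and *Bcl2* still did not overlap, at WT ratios of 2.44, 2.08, 1.67 and 0.565. Those of *Bcl2l2* did, at a WT ratio of 0.886, and *Bad* became separate in WT mice at a ratio of 1.30.

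Each member was also described by the 3 genes that followed it most closely from mouse to mouse, as Pearson's r of log2 CPM over the 14 mice after the mean of each of the 4 groups was taken away, among 14245 genes. The points share their libraries and the r values are the highest of many, so they are given as a description. *Bak1* was followed by *Rcn2* (r = 0.961), *Trim31* (0.951) and *Tmem120a* (0.946). The closest gene to *Bcl2l1* was *Api5* (0.920), and *Bcl2l2* was followed by *Foxa3* (0.908), *Zbtb11* (0.892) and *Ube2g2* (0.886). *Bcl2* was followed by *Hmbox1* (0.919), *Git2* (0.898) and *Gm43481* (0.895). For the BH3-only members the first gene was *Padi2* for *Bcl2l11* (0.942), *Zfp503* for *Bmf* (0.937), *Tmem161b* for *Bid* (0.951), *Grtp1* for *Bad* (0.932) and *Fam214a* for *Bik* (0.870). No member was among the 3 closest genes of another. Among the 36 pairs of tested members, r ran from -0.76 for *Bak1* and *Bik* to 0.52 for *Bak1* and *Bcl2l1*, with -0.70 for *Bcl2* and *Bid* and for *Bcl2l11* and *Bad*.

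The rest of the apoptosis machinery was described by 4 lists with 49 genes in all. Of the 15 other BCL2 family genes, 10 were tested without DSS and 11 after DSS, with medians of 0.02 and 0.08 on the log2 scale. *Mcl1*, a survival member with a short-lived protein, was higher in miR-29ab1-/- mice in both experiments without overlap. It stood at 261 to 340 CPM in WT and 344 to 388 CPM in miR-29ab1-/- mice without DSS (log2 fold change 0.26, unadjusted p of 0.033) and at 384 to 405 and 459 to 590 CPM after DSS (0.36, unadjusted p of 0.020), with adjusted p of 0.9995 and 0.646 (edgeR). Its 3′ UTR holds 1 match to the miR-29 8mer, chr3:95661849-95661876 on the plus strand, gtcttaaccaTGGTGCTAttcactgggt. *Bcl2a1d*, a survival gene of blood cells with close paralogues that may share its reads, stood at 0.460 to 0.758 CPM in WT and 0.707 to 2.78 CPM in miR-29ab1-/- mice after DSS (1.48, unadjusted p of 0.020).

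Of 14 apoptosome and caspase genes, none had an unadjusted p under 0.05 without DSS, and 3 did after DSS, all higher in miR-29ab1-/- mice. These were *Apaf1*, the scaffold of the apoptosome (0.40, unadjusted p of 0.036), *Cycs*, which encodes cytochrome c (0.39, unadjusted p of 0.048), and *Xiap*, an inhibitor of caspases (0.39, unadjusted p of 0.034). Of 12 death receptor genes, none did so without DSS and 4 did after DSS, all higher. They were *Fasl*, a death ligand of cytotoxic lymphocytes (1.56, unadjusted p of 0.0059), *Ripk3*, the kinase of necroptosis (0.84, unadjusted p of 0.0089), *Cflar*, an inhibitor of caspase-8 (0.27, unadjusted p of 0.00975), and *Casp8*, which cuts BID (0.37, unadjusted p of 0.029). Of 8 kinases, chaperones and other regulators, 1 did so after DSS, the stress kinase gene *Mapk8* (0.26, unadjusted p of 0.040). No gene of the 4 lists passed an adjusted p under 0.05 in either experiment, the lowest being 0.646 (edgeR). The medians after DSS were 0.06, 0.13 and 0.08 on the log2 scale for these 3 lists, beside -0.0051 over all genes. Without DSS they were -0.05, 0.06 and -0.04, beside -0.0016 over all genes. After DSS, 3.98% of all genes were higher at an unadjusted p under 0.05 (edgeR). These values stand beside the marker sums given for *Bak1*, whose part in them was not tested.

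**Figure D5:**
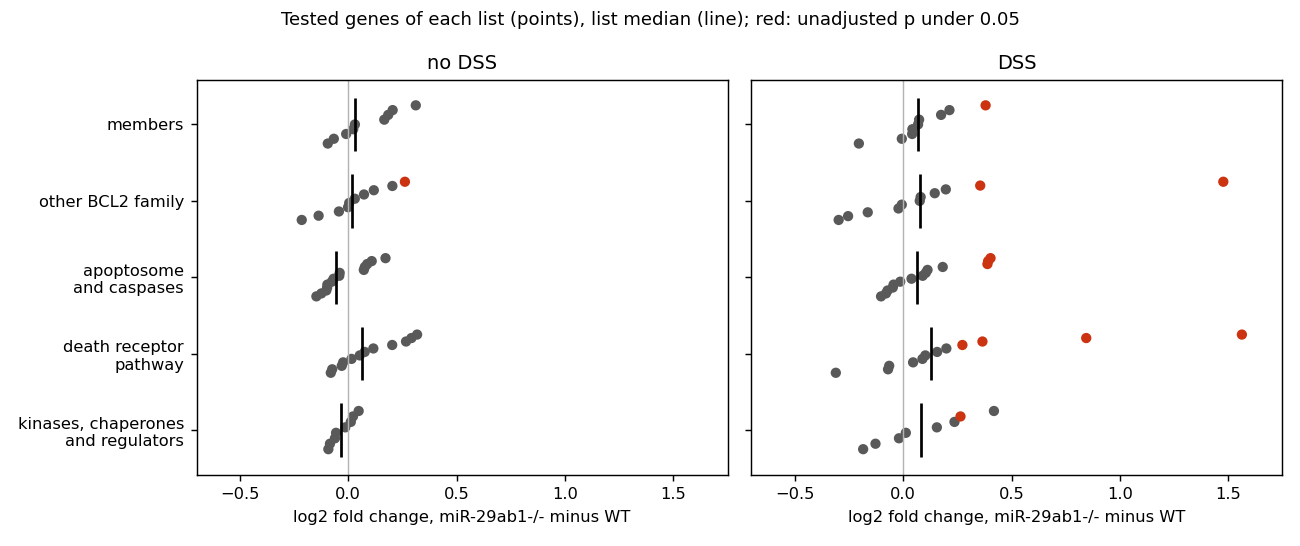
Log2 fold change between miR-29ab1-/- and WT mice of the tested genes of the family and of 4 lists of apoptosis genes (points), with the median of each list (line), without DSS and after DSS. Points with an unadjusted p under 0.05 are red, and after DSS all of them lie above 0, from 0.26 for *Mapk8* to 1.56 for *Fasl*.

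Some members share their position with other genes, and whether the counting used strand is not given in the sources used here. *Ggnbp1* lies opposite the whole of *Bak1* and had 16 to 44 reads where *Bak1* had 980 to 4177. *Bcl2l13* overlaps *Bid* by 913 bases on the opposite strand and had 945 to 1379 reads where *Bid* had 177 to 630, so the values of *Bid* are uncertain in that stretch. *Gpr137* overlaps *Bad* by 620 bases on the opposite strand, with 399 to 813 reads where *Bad* had 502 to 1085. On the same strand, the protein-coding gene *Gm43064* overlaps *Bcl2l15* by 6048 bases, and *Gm20521* overlaps *Bcl2l2* by 4794 bases. Both overlapping genes had 0 reads in every mouse, where *Bcl2l15* had 0 to 5 and *Bcl2l2* had 893 to 1304. Whether reads in these shared stretches were left uncounted was not tested.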

How the data were processed

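RNA was extracted with TRIzol and, per the labels, made into directional libraries. The submitters' processing notes name HISAT2 and DESeq2, with no versions. The authors deposited unnormalized read counts for every gene, in 1 table per experiment. FPKM values (6 columns after DSS could not be tied to a mouse) and the authors' own fold changes and p-values were also deposited and were not used here. The genome build is not given in the sources used here. GENCODE vM21 (GRCm38) holds 55230 of the identifiers without DSS and 54495 of those after DSS, with identical ends for 99.5% and 98.3%, and its coordinates are printed. The study notes that 1 WT and 1 miR-29ab1-/- sample were excluded from its own analysis, and which ones is not given in the sources used here, so all 14 mice were used. For *Bad* the end differs by 1 base in the table after DSS.

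Counts passed edgeR 4.0.16's filterByExpr (minimum count 10, minimum total 15, R 4.3.3) and were scaled by TMM. Genotypes were compared per table by the robust quasi-likelihood test, with Benjamini-Hochberg adjustment over all genes. P-values without another name are from this test. Log2 fold changes are miR-29ab1-/- minus WT, and intervals are 95% from the SE and the test's degrees of freedom. The interaction was fitted over all 14 mice on the genes of both tables. A level of 3 reads was taken as the floor, which covers counting error only. The columns after DSS carry the numbers 1 to 3 while the labels number these mice 5 to 7, so those columns are known by group only and are named by column number.

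DESeq2 1.42.0, RLE size factors, no filter, at least 10 counts in every mouse, a block for the replicate number, a T cell score as covariate, a joint model of all 14 mice, exact permutation tests and leaving out each mouse in turn were tried as alternatives. Scaling the levels of all 14 mice together was added after seeing the data. The test was tried on simulated data. The members and lists were chosen with earlier results of these data known. All 10 members are named, and genes of the lists are named at an unadjusted p under 0.05 in either experiment. Protein sequences were not used here. Results for some single genes are not given in the text.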

Additional observations from a re-analysis of the deposited data

Results flagged for a closer look

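In the 20 groups of 4 mice without DSS (10 members, 2 genotypes), 1 value stood far from the others of its group, where chance gives about 1 in 20. *Bad* in miR-29ab1-/- mouse 4 was at 35.9 CPM, while the other miR-29ab1-/- mice were at 41.9 to 43.0 CPM. Its gap to the nearest mouse was 0.846 of the group's range, above the critical value of Dixon's test for 4 samples. The same mouse had the lowest total of its group, 14231157 reads, the highest mitochondrial share, 12.3%, and the highest summed markers of T cells (259 CPM), B cells (23.5 CPM) and macrophages (19.8 CPM). The part of these in the value was not tested.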

How the results depend on the processing

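No member passed an adjusted p under 0.05 under any alternative, and the lowest was 0.135, for *Bak1* after DSS without miR-29ab1-/- mouse 3. *Bak1* after DSS kept an unadjusted p under 0.05 under every alternative fit except all 14 mice in one model (0.38, p = 0.056), which left 0 members, and the exact permutation test cannot pass with 3 against 3 mice. Leaving out single mice gave 0.31 to 0.47 there. Of 423 member values under an alternative, 37 changed sign, all for values that had not passed an unadjusted p under 0.05. *Bid* after DSS was 0.015 with the replicate block, 0.038 with the T cell score and 0.017 in the exact permutation comparison, and *Bcl2l11* after DSS was -0.061 with the T cell score. The other 33 came from leaving out single mice.

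Those ranges were -0.035 to 0.088 for *Bad*, -0.15 to 0.22 for *Bcl2l11*, -0.046 to 0.038 for *Bcl2l2* and -0.32 to 0.44 for *Bik* without DSS. After DSS they were -0.0047 to 0.085 for *Bcl2l1*, -0.030 to 0.12 for *Bcl2l11*, -0.18 to 0.13 for *Bid*, -0.051 to 0.34 for *Bik* and -0.15 to 0.41 for *Bmf*. For the interaction they were -0.042 to 0.19 for *Bak1*, -0.15 to 0.19 for *Bcl2l11*, -0.25 to 0.49 for *Bik* and -0.34 to 0.23 for *Bmf*. With no change of sign, they were 0.094 to 0.27 for *Bid* and -0.18 to -0.017 for *Bcl2l1* without DSS. Leaving out single mice gave 0 to 1 members without DSS and 0 to 1 for the interaction.

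With the replicate number as a block, 1 member passed an unadjusted p under 0.05 without DSS, *Bak1* (0.30, unadjusted p of 0.048 and adjusted p of 0.9997 by edgeR). Deviations of same-numbered mice correlated at -0.04, 0.17, -0.20 and -0.14 without DSS and at -0.05, 0.03 and 0.05 after DSS. Those of differently numbered mice ran from -0.30 to 0.29 and from -0.07 to 0.05. With so few mice, these values cannot decide whether the numbers pair the mice.

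Over all genes, an unadjusted p under 0.05 was met by 1099 without DSS and 1819 after DSS with no filter, by 288 after DSS with the T cell score, and by 479 to 692 and 483 to 2530 without single mice, the highest without miR-29ab1-/- mouse 3. An adjusted p under 0.05 was met without DSS by 23 with DESeq2, 11 with no filter and 0 with at least 10 counts in every mouse, against 59, 46 and 0 after DSS, where the block gave 1 and single mice left out gave 0 to 93. All 14 mice in one model gave 2 without DSS. Leaving out single mice gave 3 to 5 there. The cause of these shifts was not tested. The order of the members' WT levels kept 20 of 20 places under the other scalings and 18 with the gene length of the other table.

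*Bcl2l15* had at most 5 reads per mouse, and the part of depth and of its overlap with *Gm43064* in this was not tested. For *Bik*, with 14 to 111 reads, the coefficient of variation between mice was 24.8% to 62.5%.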
